A study of Drosophila melanogaster with 135 samples.

Results

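The muscle transcriptome of aged Drosophila carrying mutations in both esc and E(z) was compared with that of wild-type (WT) flies of the same age. The genes described are those whose normalized count averaged 10 or more over both groups, which were 8968 of the 17023 genes listed. A normalized count is a read count divided by a factor for the library's depth. CG32006 lay just inside that limit, and CG18577, at 9.98, just outside it.

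Polycomb repressive complex 2 (PRC2) is the enzyme that places H3K27me3, a histone mark of silenced chromatin. E(z) is its catalytic subunit, and esc is a WD-repeat subunit that the enzyme needs for full activity. Polycomb proteins are best known for keeping Hox and other developmental regulators silent in cells where they should be off, and adult muscle is rich in glycolytic and mitochondrial enzymes that fuel contraction.

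The series as a whole holds 135 samples of chromatin and RNA, and 6 of them are compared here. WT were male flies of the line 5905, and esc E(z) flies carried the labelled alleles esc289 and E(z)239. Each mutation was over a wild-type chromosome, so both genes kept 1 intact copy. Both groups were 30d old, and each had 3 polyA RNA libraries from muscle tissue pooled over many flies. The WT group was taken from the sample titles, which name it as the esc E(z) control, whereas the descriptions of those samples point to the table of another mutant. Used for comparison were 30d muscle of Pcl Su(z)12 (alleles Pcl421 and Su(z)12 253), which are further PRC2 genes, with its own WT; 30d muscle of the single mutants esc289 and E(z)239, which share 1 WT group; 30d heads of esc E(z) with their own WT; and WT muscle at 3d and 30d. These groups had 3 libraries each, and the 30d WT of the age comparison is the WT of Pcl Su(z)12.

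The alleles are CRISPR deletions, and the guide sites are shown because they place the lesions that define the genotype. Sequences run 5′ to 3′ on the strand given, read from the dm6 genome, with the PAM in capitals. The esc sites lie on the plus strand, at 2L:11829071-11829090 and 2L:11828782-11828802, and the E(z) sites on the minus strand, at 3L:10637534-10637552 and 3L:10637300-10637319.
esc guide 1: ggtgctgttggtggtatagcTGG
esc guide 2: gggcactcgtagacggtcaccCGG
E(z) guide 1: gatctgtactgcgagtcgaAGG
E(z) guide 2: gggcgacgaggtcctcgataAGG

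The esc deletion (2L:11828798-11829086) removes 227 coding and 62 intronic bases from a gene with 1275 coding bases (FBgn0000588, 2L:11827204-11829405, minus strand). The E(z) deletion (3L:10637300-10637538) removes 239 bases, all of them coding, of 2295 coding bases (FBgn0000629, 3L:10634575-10638130, minus strand). Neither number of coding bases lost is a multiple of 3.

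The depositors gave group means, from which the 6 library values were solved for 7997 of the 8968 genes (89.2%). The other 971 genes, most of them with a mean of 1000 or more in a group, have group means only and no test. Libraries are numbered within a group by decreasing depth and cannot be matched to GEO's replicate numbers. Estimated depths were 4.18 to 7.14 M reads in WT and 6.04 to 7.71 M reads in esc E(z). Libraries of 1 group differed by more than counting noise (chi-square per gene 1.93 to 2.88), and the labels number 3 samples a group without saying that they came from separate cultures, so p-values measure the spread between these samples. Library 2 of each group stood apart in photoreceptor genes, with the 10 markers summing to 1409 normalized counts in WT library 2 and 588 in esc E(z) library 2 against 349 to 378 in the other libraries. In bulk tissue, fewer cells of a type and less RNA per cell cannot be told apart.

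The tissue carried the markers of muscle. All 8 flight and body muscle markers were among the genes described, and their means summed to 37946 normalized counts in WT and 43068 in esc E(z). None of the 11 testis and accessory gland markers reached the limit (sums 6.83 and 2.36), and Acp62F, Acp95EF and Mst98Cb were listed at 0 in both groups. Gut enzymes were also abundant, with 12 of 14 markers over the limit and sums of 58837 and 55768.

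Transcripts of esc were lower in esc E(z). The gene measured 27.8, 22.1 and 26.8 normalized counts in the WT libraries and 16.8, 11.9 and 4.96 in esc E(z). The groups did not overlap, and the log2 difference of -1.25 (SE 0.36, n = 3 and 3) did not pass the test (limma adjusted p = 0.0743). Leaving out 1 library at a time gave a limma adjusted p of 0.0334 to 0.178, and it passed in only some of these fits. E(z) measured 157, 139 and 126 in WT and 115, 107 and 131 in esc E(z). Its groups overlapped (log2 -0.26, SE 0.113, limma adjusted p = 0.257). Both genes overlap another annotated gene, and reads were counted without strand, so reads of the neighbour could be included. The deletions remove 227 of 1275 coding bases of esc and 239 of 2295 of E(z), so the deleted copy could also give reads. The level from the intact copy cannot be separated from these.

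The other Polycomb genes differed little. Of 9 genes listed under PRC2, among them Utx, an H3K27me3 demethylase that is not a subunit, 0 passed limma. An unadjusted p under 0.05 was reached by 2, namely esc and E(z). Means in WT and esc E(z) were 149 and 161 for Su(z)12, 80.7 and 82.1 for Pcl, which targets the enzyme to chromatin, and 439 and 427 for the cofactor Jarid2. The esc paralogue escl measured 30.0 and 25.1. Among 12 genes of PRC1 and PhoRC, which bind or act beside the mark, log2 ratios lay between -0.13 and 0.13, with 0 passing limma and 0 at an unadjusted p under 0.05.

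Most of the transcriptome was at similar levels in both groups. The median log2 ratio of the means, esc E(z) over WT, was 0.00 over 8968 genes, and 90% of genes lay between -0.41 and 0.38. By a fold of at least 1.5 between group means, with no test, 156 genes were higher (1.74%) and 233 lower (2.60%), together 389 (4.34%). By limma on log2(normalized count + 1) of the 7997 genes with library values, at an adjusted p under 0.05, 177 rose (2.21%) and 208 fell (2.60%), together 385 (4.81%). Both limma and 1.5-fold between the group means were passed by 70 genes upward and 113 downward. Library values of the groups did not overlap for 1849 genes (23.1%), including 384 of the 385 that passed. The smallest log2 difference that passed was 0.23 in size and the median 0.56, with a median SE of 0.114 over all genes tested. Precision followed abundance: the median SD between libraries was 0.256 (log2) for genes with means of 10 to 50 and 0.0765 for those of 500 to 1000. All 385 genes kept their direction and an unadjusted p under 0.05 without each library in turn, and 162 of them kept the adjusted threshold.

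**Figure D1:**
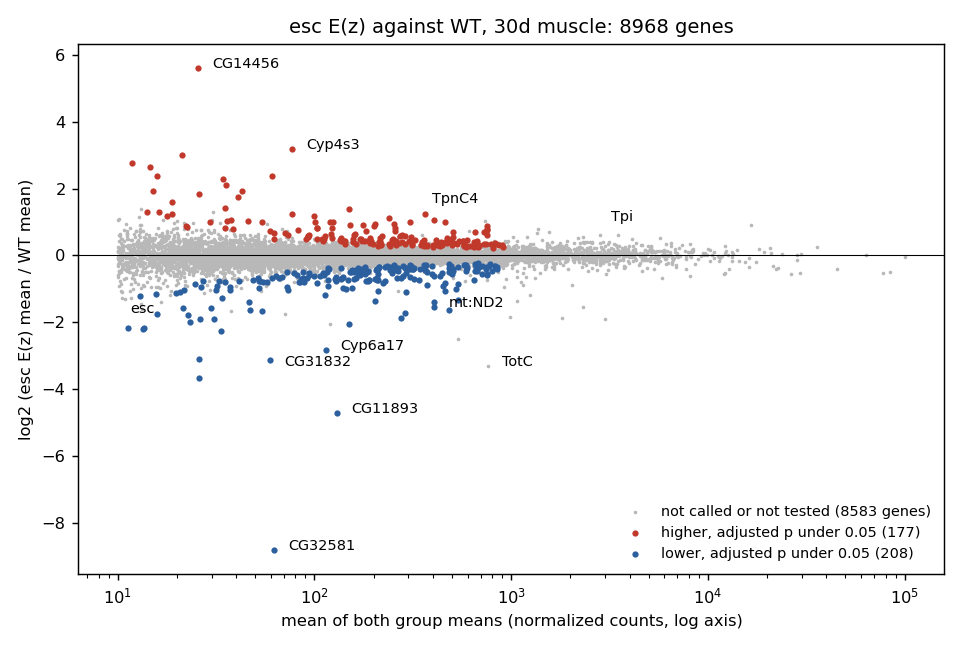
Log2 ratio of the group means, esc E(z) over WT (y axis), against the mean normalized count on a log axis (x axis), for the 8968 genes. Red points are the 177 genes that rose and blue points the 208 that fell by limma, and gray points the 8583 genes that did not pass or could not be tested. Most genes lie near 0, and CG32581 lies lowest.

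The largest rises included cytochrome P450 enzymes, a flight muscle troponin and secreted peptides. Cyp4s3, an X-linked P450, measured 18.5, 11.1 and 15.8 normalized counts in WT and 115, 174 and 126 in esc E(z). Its groups were far apart (log2 3.12, SE 0.211, limma adjusted p = 9.68e-06), and in esc E(z) heads its mean was 177 against 47.0 in WT heads (log2 1.89). TpnC4, the calcium sensor of the thin filament in flight muscle (2R:5503437-5507866, minus strand), measured 183, 263 and 206 in WT and 553, 496 and 486 in esc E(z). It rose by 1.25 on the log2 scale (SE 0.115, limma adjusted p = 0.000105) with no overlap. The same gene was higher in each other mutant, with log2 ratios of means of 1.09 in Pcl Su(z)12, 2.74 in esc and 1.46 in E(z), while WT at 30d was below WT at 3d (log2 -4.72). TpnC4 overlaps another annotated gene, so a share of these reads could be the neighbour's.

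Other large rises had the same sign in heads, some at a smaller size. CG16836 measured 285, 276 and 364 in WT and 643, 561 and 643 in esc E(z) (log2 1.00, limma adjusted p = 0.000161), with a head log2 difference of 1.02. CG8654 measured 197, 229 and 182 against 397, 442 and 382 (log2 1.00, limma adjusted p = 0.000112) and rose by 1.15 in heads. CG4078 measured 44.9, 41.9 and 49.9 against 105, 113 and 105 (log2 1.23, limma adjusted p = 0.000153), and its head means were 96.9 and 204. In all 3 genes every esc E(z) library was above every WT library. Obp57a, an odorant-binding protein, had 281, 294 and 207 in WT and 576, 493 and 569 in esc E(z) (log2 1.08, limma adjusted p = 0.000291), and the detoxification enzyme GstE11 had 47.7, 54.6 and 80.3 against 138, 128 and 150 (log2 1.21, limma adjusted p = 0.00166). Neither of these genes had overlapping groups, and their head log2 differences were 0.75 for Obp57a and 0.66 for GstE11.

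The remaining 5 of the 12 largest rises missed the adjusted threshold in at least 1 fit that left out a library. Jon25Bi, a Jonah digestive protease, measured 15.0, 6.33 and 37.7 in WT and 103, 147 and 56.2 in esc E(z) (log2 2.53, SE 0.49, limma adjusted p = 0.0117), and without esc E(z) library 2 its limma adjusted p was 0.0651. Cyp4e3 measured 27.8, 83.1 and 135 against 253, 214 and 183 (log2 1.65, limma adjusted p = 0.0391), and it missed the threshold without WT library 2 and without any 1 esc E(z) library, with limma adjusted p up to 0.113. IM23, an immune-induced peptide, measured 100, 109 and 243 against 322, 339 and 324 (log2 1.24, limma adjusted p = 0.0143) and missed it without esc E(z) library 2 (0.0601). CR44645 (log2 1.04) reached a limma adjusted p of 0.0528 without esc E(z) library 3, and CG1941 (log2 1.08) reached 0.142 without esc E(z) library 2. All 5 kept their direction, and Jon25Bi is 1 of the gut markers, whose solved sums were 848 to 1075 in WT and 729 to 813 in esc E(z).

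Among genes with lower counts, chosen after their values were seen, CycB and CG14456 stood out. CycB, a mitotic cyclin, measured 6.41, 3.95 and 3.65 normalized counts in WT and 31.7, 49.9 and 32.2 in esc E(z) (log2 2.78, SE 0.302, limma adjusted p = 0.000268), and its head means were 7.20 and 7.45. CG14456 measured 0.712, 2.37 and 0 in WT and 58.9, 51.5 and 40.5 in esc E(z) (log2 4.82 with the added count of 1, limma adjusted p = 9.63e-05). For both genes the groups were widely separated.

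The largest fall was that of CG32581. CG32581 (FBgn0052581, X:15796908-15799162, minus strand) measured 130, 132 and 112 normalized counts in WT and 0, 0 and 0.826 in esc E(z), that is 441 reads against 1. After scaling the WT over esc E(z) ratio was 508, with a 95% exact counting interval of 90.6 to 20093, which covers counting error only, and limma gave an adjusted p of 9.5e-07. The gene was near absent from the mutant in both tissues, its head means being 353 in WT and 0 in esc E(z). In the single mutants the log2 ratio of means was -0.91 (esc) and -0.29 (E(z)), and in Pcl Su(z)12 it was 0.07.

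Of the other large falls given here, those of CG11893, Cyp6a17 and CG42329 were also seen in heads. CG11893 measured 171, 189 and 389 in WT and 12.3, 9.51 and 6.61 in esc E(z) (log2 -4.52, SE 0.29, limma adjusted p = 6.5e-06), with a head log2 difference of -3.52. Cyp6a17, a P450, measured 120, 182 and 299 against 24.6, 23.8 and 36.4 (log2 -2.71, limma adjusted p = 0.000153), with -3.42 in heads. Groups were far apart in both. CG42329 measured 252, 191 and 278 against 51.8, 48.4 and 75.2 (log2 -2.03, limma adjusted p = 5.7e-05) and fell in heads from a mean of 517 to 166. CG31832 measured 111, 110 and 98.5 against 9.71, 18.2 and 8.26 (log2 -3.11, limma adjusted p = 3.35e-05). CG31832 was barely detected in heads (6.76 and 7.45), and the esc single mutant had a log2 ratio of -3.0 where E(z) had -0.16. Mal-A4, a maltase, measured 68.4, 101 and 76.6 against 9.06, 17.4 and 52.0 (log2 -1.94, limma adjusted p = 0.0288) and missed the threshold in 4 of the 6 fits that left out a library, with limma adjusted p up to 0.106 without esc E(z) library 2. Head means of Mal-A4 were at the floor (0.359 in WT and 0.672 in esc E(z)).

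APC7 and Cda9, named after their values were seen, also fell. APC7, a subunit of the anaphase-promoting complex, measured 47.0, 43.5 and 53.5 in WT and 3.24, 4.76 and 3.30 in esc E(z) (log2 -3.37, limma adjusted p = 3.01e-05), with -2.69 in heads. Cda9, a chitin deacetylase, measured 629, 641 and 613 against 312, 280 and 301 (log2 -1.08, limma adjusted p = 5.59e-06) and was near the floor in heads (6.02 and 6.04). Neither gene had overlapping groups.

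**Figure D2:**
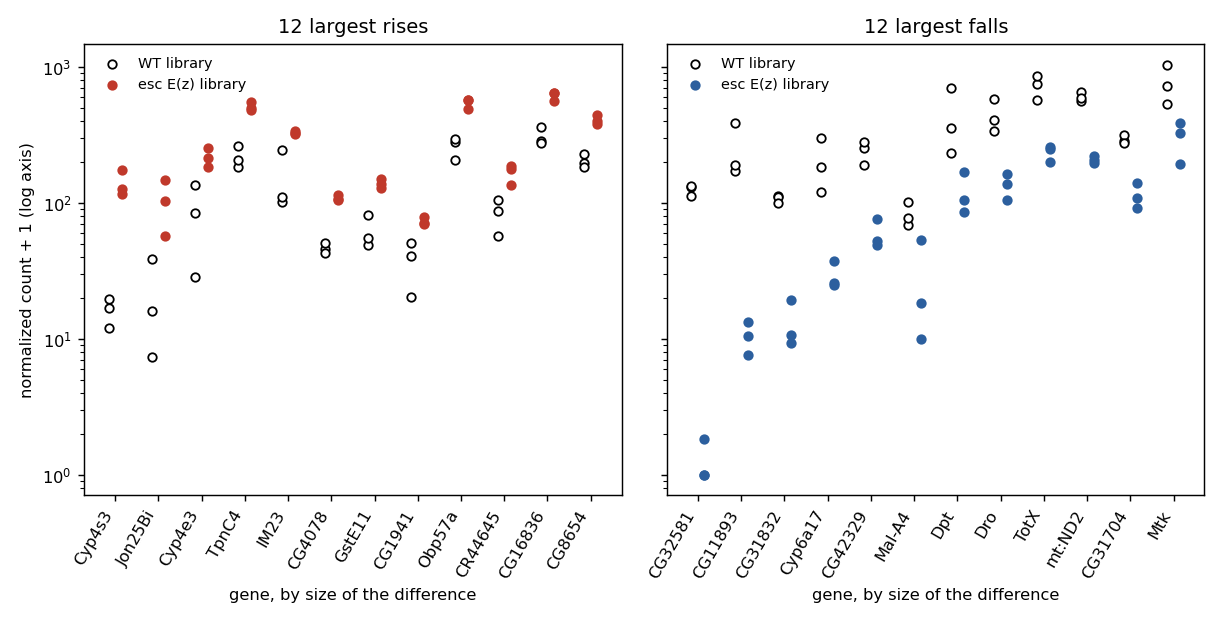
Normalized count plus 1 on a log axis in each of the 3 WT and 3 esc E(z) libraries, for the 12 strongest rises and 12 strongest falls of genes averaging 50 or more. Each point is 1 library. The groups do not overlap for any of the 24 genes, which was a condition for choosing them, and CG32581 drops to 0, 0 and 0.826 normalized counts.

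Enzymes of glycolysis, which splits glucose to pyruvate and feeds ATP production in muscle, were at higher means throughout the pathway. All 13 glycolytic genes over the limit had a log2 ratio above 0, from 0.08 to 0.61 with a median of 0.38, beside 51.1% of all genes above 0 and a median of 0.00. The list was chosen with earlier results of these data known, so its direction is not independent evidence. Only 2 of the 13 have library values, so for the rest the difference was not tested.

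Step by step, Hex-A, which phosphorylates glucose, had means of 2696 in WT and 2856 in esc E(z), and Pgi, the isomerase that follows, 5635 and 7323. The gatekeeping kinase Pfk measured 2172 and 2865, and the aldolase Ald 32567 and 38836. Tpi, which interconverts the triose phosphates, measured 2250 and 3437 (log2 0.61) and was the only step past the 1.5-fold limit. In heads Tpi had a log2 ratio of 0.40. Gapdh1 measured 4710 and 6735 and its near-identical copy Gapdh2 3747 and 4550, and reads of these copies could be exchanged. Pgk measured 2722 and 3597, Pglym78 1789 and 2572, Eno 9378 and 10736, and PyK, the last step, 7831 and 8956. Each of these enzymes had the higher mean in esc E(z), and Ald, Pgk, Pglym78, Eno and Hex-C overlap another annotated gene.

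Lactate dehydrogenase ImpL3 was the glycolytic gene that passed the test. It measured 234, 193 and 232 normalized counts in WT and 269, 305 and 286 in esc E(z) (log2 0.39, SE 0.0918, limma adjusted p = 0.0339), with no overlap. The call was lost without WT library 2, esc E(z) library 2 or esc E(z) library 3, with limma adjusted p up to 0.131. Hex-C measured 722, 692 and 648 against 693, 991 and 858, and its groups overlapped. In the other tables the median log2 ratio of the pathway was 0.24 in Pcl Su(z)12, 0.35 in esc, 0.20 in E(z) and 0.25 in esc E(z) heads. ImpL3 itself went the other way in esc muscle, where it fell by 0.62 on the log2 scale (limma adjusted p = 0.00297), and had log2 ratios of means of -0.10 in Pcl Su(z)12 and -0.16 in E(z), neither passing limma. In heads it rose (log2 0.63, limma adjusted p = 0.0166). The pathway median between WT at 30d and WT at 3d was -1.62.

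Neighbouring carbohydrate pathways showed the same sign. Of 10 glycogen and trehalose genes 9 lay above 0 (median 0.31), among them glycogen phosphorylase GlyP at 3744 and 4901, and 0 of the 1 gene with library values passed limma. All 5 pentose phosphate genes lay above 0 (median 0.21), and Rpi, a ribose phosphate isomerase, rose from 412, 409 and 354 to 467, 503 and 472 (log2 0.30, limma adjusted p = 0.0454), a call lost without any 1 library (limma adjusted p up to 0.159). The wider glycolysis and gluconeogenesis list of the study had 29 of 37 genes above 0 (median 0.24). Of 15 tested 0 fell, beside 2.60% of all genes tested, and 3 rose (20%, beside 2.21%). Besides ImpL3 these were Adh, which measured 171, 157 and 170 against 217, 210 and 223 (log2 0.38), and fbp, the gluconeogenic bisphosphatase, at 813, 789 and 730 against 906, 1040 and 954 (log2 0.31). Both of these calls were lost without some of the libraries, with limma adjusted p up to 0.0858 for Adh (without esc E(z) library 3) and 0.0971 for fbp (without esc E(z) library 2).

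Mitochondrial energy metabolism stayed near the centre of all genes, apart from transcripts of the mitochondrial genome. The 26 genes of the TCA cycle had a median log2 ratio of 0.03, with 0 of 3 passing limma and 0 at an unadjusted p under 0.05. The 106 oxidative phosphorylation genes had a median of -0.02, with 1 up and 2 down of 37 tested (2.70% and 5.41%, beside 2.21% and 2.60% of all genes tested). The gene that rose was NP15.6 (log2 0.35), a complex I subunit, and the genes that fell were mt:ND2 and mt:ATPase8, both encoded in the mitochondrial genome.

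All 15 mitochondrial-genome transcripts, a group formed after the values were seen, had log2 ratios below 0, with a median of -0.53. mt:ND2, a complex I subunit, measured 563, 657 and 590 in WT and 221, 205 and 195 in esc E(z) (log2 -1.54, SE 0.0796, limma adjusted p = 1.13e-06), with -0.51 in heads. mt:ATPase8 measured 231, 278 and 251 against 150, 159 and 154 (log2 -0.70; it overlaps another annotated gene), and mt:srRNA, the small ribosomal RNA, 311, 413 and 291 against 217, 218 and 197 (log2 -0.67, limma adjusted p = 0.00666). These genes had no overlap between groups. mt:ND6 fell by 0.41 on the log2 scale (limma adjusted p = 0.0297, and up to 0.0983 without 1 library), and mt:ND4L, at 54.1, 72.8 and 63.2 against 34.9, 54.7 and 36.4, overlapped. The other 10 have means only, such as mt:CoI, a complex IV subunit, at 90962 and 63653.

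Structural genes of the sarcomere had list medians near that of all genes, and 3 of them passed the test, TpnC4, TpnC41C and fln. The 9 thick filament genes had a median log2 ratio of 0.02. Myosin heavy chain Mhc had means of 13238 and 14898 and Mlc2, its regulatory light chain, 7175 and 9138. Flightin, encoded by fln, measured 84.8, 114 and 96.1 in WT and 62.1, 61.0 and 71.9 in esc E(z) (log2 -0.58, limma adjusted p = 0.031). It was the only thick filament gene with library values, and the call was lost in 4 of the 6 fits that left out a library (limma adjusted p up to 0.111).

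The 15 thin filament genes had a median of 0.10, with 2 of 5 tested rising (40%, beside 2.21% of all genes tested) and 0 falling. Beside TpnC4, the troponin C gene TpnC41C rose from 393, 429 and 421 to 528, 508 and 561 (log2 0.36, limma adjusted p = 0.00954), which became 0.0576 without esc E(z) library 3. The actins differed in sign, as Act79B had means of 3398 and 4795 and Act57B 7696 and 6062, neither of them tested. Of 9 genes for calcium handling and excitation, 6 were tested, 0 passed limma and 1 (Sh) had an unadjusted p under 0.05.

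Subunits of the proteasome, which degrades ubiquitin-tagged proteins, mostly had lower means, and few passed the test. Of 31 proteasome genes 30 had log2 ratios below 0 (median -0.20), and 3 of 28 tested passed limma (10.7%, beside 2.60% of all genes), all down, while 18 had an unadjusted p under 0.05. Prosbeta1, a catalytic core subunit, measured 781, 652 and 868 in WT and 574, 555 and 594 in esc E(z) (log2 -0.41, limma adjusted p = 0.025). Prosbeta2 (log2 -0.35) and Prosalpha5 (log2 -0.48) were the others, and each of the 3 calls was lost in at least 4 of the 6 fits that left out a library (limma adjusted p up to 0.0983, 0.104 and 0.114). The median proteasome log2 ratio was -0.12 in Pcl Su(z)12, -0.51 in esc and -0.60 in E(z), and 0.05 in esc E(z) heads. Mitochondrial ribosomal protein genes had a median of -0.09, with 1 up and 2 down of 70 (1.43% and 2.86%, beside 2.21% and 2.60% of all genes tested). Cytoplasmic ribosomal protein genes had a median of 0.04, with 0 of 4 passing limma and 0 at an unadjusted p under 0.05. The polyubiquitin gene Ubi-p5E, with means only, was at 2841 in WT and 769 in esc E(z). Of 14 heat shock and chaperone genes, 10 had log2 ratios below 0 and 4 above (median -0.33). By group means 4 were lower by at least 1.5-fold, beside 2.60% of all genes, and 0 were higher. Of the 5 tested, 0 passed limma or had an unadjusted p under 0.05, and Hsp26, a small heat shock protein, spread over 270 to 1109 in WT and 116 to 687 in esc E(z).

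Antimicrobial peptide and Turandot genes were lower in esc E(z). Antimicrobial peptides are small secreted proteins, made largely by the fat body under control of the Toll and Imd pathways, that kill bacteria and fungi. All 13 peptide genes over the limit had log2 ratios below 0 (median -1.13, from -1.86 to -0.23), 10 of them past 1.5-fold, against 2.60% of all genes. Of 12 tested, 5 fell by limma (2.60% of all genes tested fell) and 8 had an unadjusted p under 0.05.

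Drosocin, encoded by Dro, measured 585, 340 and 410 in WT and 136, 105 and 164 in esc E(z) (log2 -1.70, SE 0.185, limma adjusted p = 0.000268), and fell by 1.67 on the log2 scale in heads. Diptericin, encoded by Dpt, measured 706, 355 and 233 against 168, 84.8 and 104 (log2 -1.76, SE 0.327, limma adjusted p = 0.00954), and metchnikowin, encoded by Mtk, 1043, 718 and 537 against 389, 191 and 328 (log2 -1.35, limma adjusted p = 0.00913). The groups did not overlap for these genes, and Dpt reached a limma adjusted p of 0.0506 without esc E(z) library 2. Drosomycin, encoded by Drs, measured 575, 625 and 565 against 324, 285 and 393 (log2 -0.83, limma adjusted p = 0.000717). DptB measured 781, 617 and 353 against 360, 151 and 158 (log2 -1.43, limma adjusted p = 0.0241), with groups that touch at 353 and 360, and limma adjusted p up to 0.105 without 1 library. The peptides AttA, AttB, CecA1, CecA2, CecC, Def and edin did not pass, and AttC had means of 1736 and 761.

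The 4 Turandot genes, secreted stress peptides, were also below 0 (median -1.77), and 1 of 2 tested fell by limma, beside 2.60% of all genes tested. All 4 were below 0 too in Pcl Su(z)12 (median -1.35), esc (-0.95), E(z) (-1.15) and esc E(z) heads (-1.71). TotX measured 755, 569 and 854 in WT and 200, 258 and 247 in esc E(z) (log2 -1.61, SE 0.135, limma adjusted p = 5.66e-05), without overlap, and its head log2 difference was -1.64. TotC, at 1382 and 140, and TotA, at 4764 and 1269, have means only. The immune-induced IM genes, a family grouped after the values were seen, did not share this direction, as 5 of 6 lay above 0 (median 0.18). Of 4 tested 1 rose (IM23) and 0 fell, beside 2.21% and 2.60% of all genes tested.

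Fat body markers over the limit also had lower means, but only 1 of 4 tested passed limma. All 6 over the limit had log2 ratios below 0, from -0.81 to -0.08. The 10 markers summed to 28251 in WT and 21994 in esc E(z), of which Rfabg alone was 25524 and 19675. Lsp1beta, at 1732 and 1644, and Yp3, at 66.4 and 61.4, differed little. Below the limit, Yp1 was lower and Lsp1gamma, Fbp1 and Fbp2 were not. The 8 markers with library values summed to 837 to 1216 in WT and 577 to 825 in esc E(z). No fat body marker was at 0 in both groups. Lsp1alpha, a larval serum protein, fell from 178, 157 and 141 to 90.6, 101 and 97.5 (log2 -0.71, limma adjusted p = 0.00325), and 7 hemocyte markers summed to 5104 and 4722. Their part in the lower peptide levels was not tested. Elsewhere the median over the antimicrobial peptides was -0.75 in Pcl Su(z)12, 1.13 in esc, 0.63 in E(z) and -0.98 in esc E(z) heads, and 3.32 for WT at 30d over 3d.

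**Figure D3:**
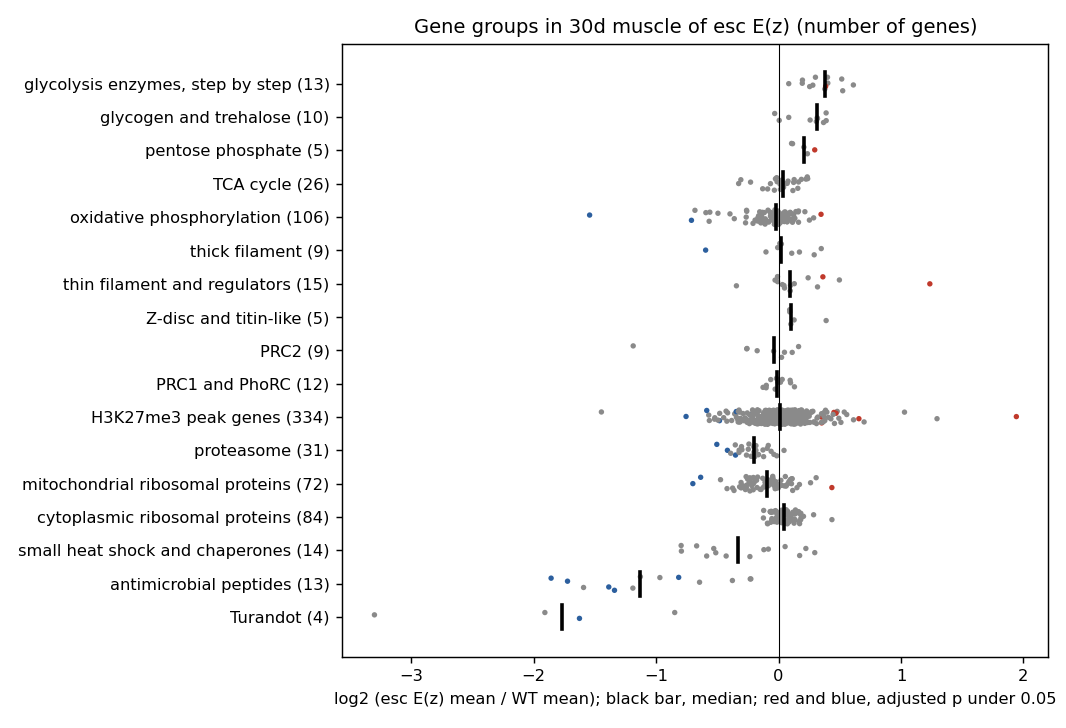
Log2 ratio of the group means, esc E(z) over WT (x axis), for each member of 17 gene lists (y axis). Each point is 1 gene, the black bar is the list's median, and red and blue points passed limma upward and downward. Glycolysis genes lie above 0 and antimicrobial peptide and Turandot genes below it, while the Polycomb lists centre near 0.

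Detoxification enzymes changed in both directions. Of 53 cytochrome P450 genes tested, 3 rose (5.66%, beside 2.21% of all genes), namely Cyp4s3, Cyp4e3 and Cyp12c1 (log2 0.59), and 7 fell (13.2%, beside 2.60%). Cyp6a16 measured 49.2, 61.7 and 29.2 in WT and 3.88, 2.38 and 9.91 in esc E(z) (log2 -3.01, limma adjusted p = 0.00158), with -2.74 in heads. Its groups were far apart, and the other falls were Cyp6a17, Cyp4ac3 (log2 -1.25), Cyp6a14 (-0.97), Cyp12e1 (-0.74), Cyp4aa1 (-0.49) and Cyp12a5 (-0.45). Cyp6a14 and Cyp12a5 missed the threshold without 1 library, at limma adjusted p up to 0.115 and 0.0502. Of 24 glutathione S-transferase genes tested, 3 rose (12.5%, beside 2.21% of all genes) and 0 fell, with 7 up and 2 down at an unadjusted p under 0.05. GstD8 measured 9.26, 10.3 and 8.51 against 23.3, 34.1 and 28.1 (log2 1.5, limma adjusted p = 0.00462), and GstO2 rose by 0.27 (limma adjusted p = 0.029, and up to 0.12 without 1 library). With a WT mean of 9.35, GstD8 reached the limit of 10 only through its esc E(z) libraries.

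Of the study's list of ageing genes, 1 of 43 tested rose by limma (2.33%, beside 2.21% of all genes) and 0 fell (beside 2.60%). At an unadjusted p under 0.05 there were 4 up and 3 down, where 17.8% of all genes tested were under it. The gene that rose was fabp, a fatty acid binding protein, at 313, 475 and 372 in WT and 582, 768 and 527 in esc E(z) (log2 0.69, limma adjusted p = 0.022). It did not overlap between groups, but reached up to 0.0832 without 1 library (esc E(z) library 2). Gnmt, which uses up S-adenosylmethionine in methylating glycine, has means only, 1536 in WT and 600 in esc E(z).

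Genes under H3K27me3 in WT chromatin were taken from the names that the study's supplement gives for its peaks, which may not be every peak gene of the study. Of the 962 names read from it, 334 were over the limit and 311 tested, and 6 rose (1.93%) and 5 fell (1.61%), beside 2.21% and 2.60% of all genes tested. Their median log2 ratio was 0.01.

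The largest rise among them was Ptth, the brain hormone that drives ecdysone production in larvae, at 7.84, 4.75 and 6.08 in WT and 20.7, 24.6 and 26.4 in esc E(z) (log2 1.80, SE 0.286, limma adjusted p = 0.00373), with 1.31 in heads. salr, a zinc finger regulator of flight muscle identity, measured 115, 130 and 131 against 180, 197 and 216 (log2 0.65, SE 0.0988, limma adjusted p = 0.00295). Groups did not overlap for either gene. vg, a wing and flight muscle selector gene, measured 267, 251 and 247 against 328, 319 and 328 (log2 0.35, limma adjusted p = 0.0137, and up to 0.0619 without 1 library). Oat, which metabolises ornithine, measured 308, 308 and 303 against 404, 450 and 402 (log2 0.45, limma adjusted p = 0.00334). All 4 genes were higher in each esc E(z) library, and the others that rose were CG4213 (log2 0.35) and CG14880 (log2 0.47). CG17324 (log2 -0.76), hui (-0.60), CG10205 (-0.48), LpR2 (-0.35) and CG13323 (-0.23) fell. Of these CG14880, CG17324, hui, LpR2 and CG13323 missed the threshold without 1 library, with limma adjusted p up to 0.163 for LpR2.

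Hox genes, the classical Polycomb targets, did not pass the test. Of 8 Hox genes 6 were over the limit, and 0 passed limma or had an unadjusted p under 0.05. Means in WT and esc E(z) were 27.6 and 35.6 for abd-A, 20.6 and 14.8 for Abd-B, 75.0 and 66.9 for Scr and 156 and 164 for Antp, while lab (1.41 and 2.3) and Dfd (0.811 and 0.216) were below the limit. The smallest log2 difference that passed was 0.70 among genes with means of 10 to 50, such as abd-A and Abd-B, and 0.33 among those of 50 to 200, such as Scr and Antp.

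Genes near the mutated loci were counted separately. Within 1 Mb of esc, 8 of 102 tested genes passed (7.84%), 1 up and 7 down, beside 4.81% of all genes tested. The gene that rose was salr, and those that fell were CG31704, Mal-B1, Ppt2, CG14945, hgo, Phae1 and Phae2, of which Ppt2 and CG14945 missed the threshold without 1 library (limma adjusted p up to 0.114 and 0.0792). CG31704 measured 284, 317 and 276 in WT and 139, 108 and 90.9 in esc E(z) (log2 -1.39, limma adjusted p = 0.00013), with no overlap and -1.41 in heads. Within 1 Mb of E(z) 5 of 99 passed (5.05%), with CalpB up and Blos4, CG7607, CG7560 and CG32068 down, each of which missed the threshold in at least 5 of the 6 fits without 1 library (limma adjusted p up to 0.164). By chromosome arm, 43 rose and 39 fell of 1396 on 2L (5.87%), 36 and 56 of 1591 on 2R (5.78%), 35 and 36 of 1503 on 3L (4.72%), 27 and 50 of 1972 on 3R (3.90%) and 33 and 20 of 1304 on X (4.06%).

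The other tissue of the same genotype, with its own WT, showed many of the same changes. Of genes that rose in muscle and were over the limit in heads, 141 of 160 (88.1%) had a head log2 ratio above 0, and of those that fell 163 of 182 (89.6%) were below 0, where 47.5% of all genes were above 0. In heads 60 of 150 that rose in muscle also rose by limma (40.0%, against 3.07% of all genes), and 51 of 164 that fell also fell (31.1%, against 2.43%). Of the 69 genes with a log2 difference of at least 1 in size in muscle, 53 were over the limit in heads, 50 had the same sign and 35 passed in the same direction.

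**Figure D4:**
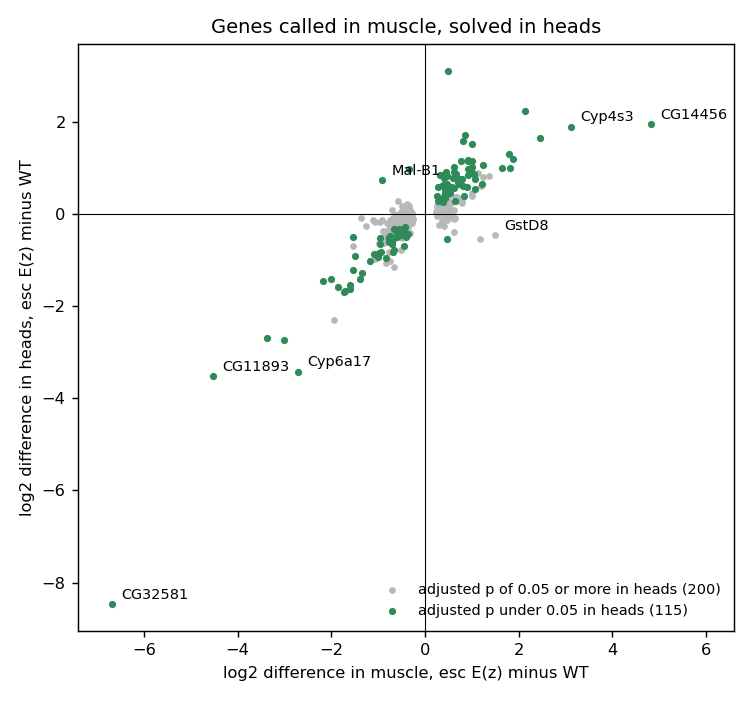
Log2 difference in esc E(z) heads (y axis) against that in esc E(z) muscle (x axis), each from its own WT, for the 315 genes that passed in muscle and have library values in heads. Green points are the 115 genes with a limma adjusted p under 0.05 in heads, and gray points the other 200. Most points share their sign in both tissues, and CG32581 and CG11893 lie lowest.

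The single mutants and Pcl Su(z)12 were compared in the same way, and the shares were not tested against those of heads. In esc muscle 137 of 170 genes that rose in esc E(z) were above 0 (80.6%) and 161 of 207 that fell were below 0 (77.8%), where 48.0% of all genes were above 0. By limma 37 of 162 also rose (22.8%) and 50 of 202 also fell (24.8%). In E(z) muscle these were 134 of 170 (78.8%) and 154 of 206 (74.8%), with 49.9% of all genes above 0, and in Pcl Su(z)12 muscle 129 of 175 (73.7%) and 140 of 207 (67.6%), with 51.2% of all genes above 0. By limma 36 of 170 also rose in E(z) (21.2%) and 32 of 203 also fell (15.8%), and in Pcl Su(z)12 30 of 165 also rose (18.2%) and 31 of 184 also fell (16.8%). The single mutants share 1 WT group. In the ageing of WT muscle from 3d to 30d, 86 of 173 genes that rose in esc E(z) were above 0 (49.7%), while of those that fell 140 of 207 were above 0 (67.6%), beside 52.1% of all genes.

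The differences themselves were tested as interactions. The effect in esc E(z) muscle differed by limma from that in Pcl Su(z)12 for 140 of 7565 genes (1.85%), with 62 more positive (0.82%) and 78 more negative (1.03%) in esc E(z). From that in esc it differed for 113 of 7655 (1.48%), 44 more positive (0.575%) and 69 more negative (0.901%). From that in E(z) it differed for 61 of 7771 (0.785%), 25 more positive (0.322%) and 36 more negative (0.463%), and from that in esc E(z) heads for 17 of 7067 (0.241%), 11 more positive (0.156%) and 6 more negative (0.0849%). These counts rest on tables normalized separately, with each difference taken within its table. They also rest on library values chosen between several solutions for part of the genes, most often in esc muscle.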

How the data were processed

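Muscle and head polyA RNA was sequenced by the authors as single-end reads of 100 bases, aligned with STAR to dm6, counted per gene with HTSeq without strand, and compared with DESeq. The values the authors deposited are a normalized signal: per gene, the mean over 3 libraries of counts divided by DESeq size factors, for control and mutant. The authors' fold, log2, p-value and adjusted p columns were not used. Because a mean of 3 scaled whole counts allows few solutions, library counts were solved from the printed decimals for means under 1000. Where several were possible (435 WT and 748 esc E(z) means), a solution was taken only if it alone had a highest library no more than 2 times its lowest, which favours close libraries. In the esc single mutant 2168 means were chosen this way, and 262 more with several solutions stayed unsolved. The number chosen was 11 in E(z) and 192 in the WT of the single mutants. For WT and mutant it was 1362 and 549 with Pcl Su(z)12, and 884 and 637 in esc E(z) heads. Calls in those groups and the interactions rest on the same choice. On simulated counts for the WT group of esc E(z) muscle (17023 genes), 11180 of 11181 means were solved and 1 of them was wrong. Every simulated gene had the same modest spread between libraries. Libraries of some real genes lay more than 2 times apart, as for Obp19b (52.0 to 301 in WT). The simulation therefore does not measure the error of choosing between several solutions, and the esc E(z) group was not simulated. At least 95% of genes had to be solved for a main test. As 89.2% were, the main measure is a fold of at least 1.5 between means with no test, and limma was added after seeing the data. limma (mean-variance trend, two-sided, Benjamini-Hochberg over all genes tested, threshold 0.05) was run on log2(normalized count + 1), and interactions as differences of the mutant-minus-control contrasts. Normalization is the authors' and was kept. Estimated depths were 4.18 to 7.71 M reads. Intervals cover counting error only. The genes named are esc and E(z), the 12 largest rises and falls passing limma with a mean of at least 50 and no overlap, all glycolytic steps, up to 4 of each list, up to 5 per interaction and genes within 1 Mb of the mutated loci, and other genes were named after their values were seen. Members and lists were chosen with earlier results of these data known. Sites and positions come from the dm6 genome and annotation. Tools were Python 3.11.15, numpy 2.4.6, pandas 2.3.3, R 4.3.3 and limma 3.58.1.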

Additional observations from a re-analysis of the deposited data

Results flagged for a closer look

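The esc E(z) effect in muscle differed from that in another comparison for 140 genes against Pcl Su(z)12, 113 against esc, 61 against E(z) and 17 against esc E(z) heads, by limma interaction contrasts at an adjusted p under 0.05. The values that follow are differences of log2 effects, esc E(z) muscle minus the other, for the 5 largest of each, and esc and E(z) share their WT group.

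Against Pcl Su(z)12 the largest were CG32581 (-6.75), Mal-A4 (-4.09), Jon25Bii (3.94), CG18179 (-3.64) and CG31832 (-3.61). CG18179 measured a mean of 52.9 in the control and 445 in Pcl Su(z)12 (34.1 and 22.2 in the esc E(z) comparison), and Mal-A4 29.9 and 172. Against esc they were CG32581 (-5.76), CG43920 (-4.33), the cecropin CecA1 (-3.34), Dro (-3.21) and CG11893 (-3.02). CecA1 and Dro had higher means in esc than in its control (23.7 and 99.9, 206 and 429). Against E(z) they were CG32581 (-6.39), CG11893 (-3.29), APC7 (-3.01), CG31832 (-2.95) and CG17324 (-2.76).

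Against esc E(z) heads the largest were CG13704 (-2.63), the immune amidase gene PGRP-SC2 (2.19), GstD8 (1.96), lox2 (1.70) and the maltase Mal-B1 (-1.64). CG13704 was higher in the mutant in both tissues, from a mean of 12.7 to 93.0 in heads and from 90.6 to 127 in muscle. Mal-B1 had means of 99.6 and 165 in heads but 590 and 311 in muscle, and PGRP-SC2 83.1 and 13.5 in heads.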

How the results depend on the processing

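No paired analysis was possible because the deposited columns are group means that carry no replicate numbers. Without a minimum level 1366 genes were higher and 1772 lower by 1.5-fold instead of 156 and 233, and with a minimum mean of 50 these were 59 and 119. Passing limma with a difference fitted by limma of at least 1.5-fold left 70 and 111 (70 and 113 with the fold of the group means), and an unadjusted p under 0.05 by limma gave 689 and 735. Other pseudocounts, scaling to equal totals and centring on the median kept both counts within 1.5 times. The limma counts of 177 and 208 ranged from 81 to 160 up and from 122 to 172 down when 1 library was left out. They were lowest without esc E(z) library 3 (81 and 122), 134 fell without WT library 1, and without the libraries rich in photoreceptor transcripts they were 136 and 172 (WT library 2) and 91 and 124 (esc E(z) library 2). With a minimum mean of 50 the interaction with Pcl Su(z)12 fell from 140 genes to 90. With only means that had 1 solution, 131 rose and 177 fell. All 385 genes that passed limma kept their direction without each library in turn. Under the other settings only the genes named by the stated rules were followed singly. Of those that passed limma, no gene changed direction, and only Blos4 missed the threshold, without a minimum level (limma adjusted p = 0.0749). Among genes not followed some also missed it, as 169 rose instead of 177 with the median set to 0. Outside the fits that left out a library, 20 list medians moved by more than the spread between libraries and 194 did not, and in those fits 38 moved and 82 did not. The medians of PRC2, PRC1 and PhoRC, P450, TCA cycle, oxidative phosphorylation and both ribosomal groups lie close to 0, and all of these but the mitochondrial ribosomal proteins took the other sign in some setting. Depth limits genes with means of 10 to 50, where the smallest log2 difference that passed was 0.70.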

Other observations

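Peptidoglycan recognition protein genes, a family chosen after the values were seen, had 7 of 9 log2 ratios below 0, and 3 of 8 tested fell, beside 2.60% of all genes. PGRP-SD, a secreted sensor of bacterial cell walls, measured 445, 369 and 376 normalized counts in WT and 153, 215 and 190 in esc E(z) (log2 -1.10, limma adjusted p = 0.000259), with a head log2 difference of -0.86. PGRP-LC, the membrane receptor of the Imd pathway, fell by 0.26 and PGRP-LA by 0.42 on the log2 scale. Both calls were lost in some fit without 1 library, at limma adjusted p up to 0.108 and 0.140. Among genes of the Toll cascade, 4 are given here because they passed, and the pathway as a whole was not counted. The proteases grass (log2 -0.43, limma adjusted p = 0.00722) and spirit (log2 -0.46, limma adjusted p = 0.0367) fell, while GNBP1 (log2 -0.38) and spz5 (log2 -0.61) passed at limma adjusted p of 0.0496 and 0.0266. Without 1 library, limma adjusted p rose to 0.135 for spirit, 0.177 for GNBP1 and 0.0989 for spz5.

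Other secreted families, also chosen after their values were seen, moved less uniformly. Of 8 Jonah protease genes, 6 had log2 ratios above 0 and 2 below (median 0.19). Only Jon25Bi and Jon25Bii have library values, and both rose, from low WT means of 19.7 and 11.6. The other Jonah genes, such as Jon65Aiii at 3843 and 3549 and Jon99Cii at 1634 and 2218, were not tested and not past 1.5-fold. Of 13 cuticle protein genes tested 2 rose and 2 fell, with Cpr66D at 172, 166 and 242 against 323, 306 and 334 (log2 0.75, limma adjusted p = 0.00476). Of 15 odorant-binding protein genes tested 2 rose and 1 fell. Over all genes tested, 2.21% rose and 2.60% fell. Obp99b, with means only, was at 1185 and 1924. The 7 cuticle markers summed to 390 to 496 in WT libraries and 606 to 632 in esc E(z) libraries, and their part in the rises of secreted genes was not tested.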
